A study of Mus musculus with 2 samples.

Results

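Liver-enriched microRNAs (miRNAs) were followed in serum exosomes, the small vesicles that cells release into blood. The members were the array entries whose design name was mmu-miR-122-5p, mmu-miR-192-5p, mmu-miR-194-5p or mmu-miR-802-5p (the prefix for mouse is left out below), and all 4 were found among the 1881 mouse miRNAs of the array. Exosomes came from the serum of 6-week-old female C57BL/6 mice with subcutaneous Lewis lung carcinoma (LLC), a mouse lung cancer line that here carried luciferase. Mice of the LLC group received 1000000 LLC cells alone, and mice of the MSC+LLC group received the LLC cells mixed with purchased mesenchymal stem cells from mouse bone marrow (BMSCs). Serum was taken once tumours averaged 200 mm3. The study's text speaks of plasma, the labels of serum, and the tissue entries of the labels (lung, or bone marrow and lung) name the injected cells. Each group was 1 array, how many mice were pooled was not given in the sources used here, and so no test between the groups was made. All errors below are the spread of repeated spots on an array, which is technical. In a blood sample, fewer vesicles from a tissue and less miRNA per vesicle cannot be told apart.

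miRNAs are short RNAs that pair with messenger RNAs mainly through the seed, bases 2 to 8 counted from the 5′ end, and lower the output of those messages. miR-122 is the dominant miRNA of hepatocytes, acts on cholesterol and lipid metabolism, and is a widely used blood marker of hepatocyte injury. miR-192 and miR-194 are made together from clustered hairpins and are found in liver but also in kidney and intestine, so they mark the liver less strictly. miR-802 is expressed in liver and kidney and takes part in glucose metabolism.

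The mature sequences are shown to make plain which members could be confused by a probe. They are from RefSeq (GRCm38.p6), which matched 3 of the 4 members, and capitals mark the seed.
miR-192-5p: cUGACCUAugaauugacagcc
miR-215-5p: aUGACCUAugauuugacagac
miR-194-5p: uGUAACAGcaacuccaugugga
miR-802-5p: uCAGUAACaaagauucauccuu
RefSeq gave a sequence for 1608 of the 1881 array miRNAs, and the seeds of the other 273 were not searched. miR-215-5p is no member, but among the 1608 it was the only further miRNA with the seed of a matched member. It is identical to miR-192-5p at 18 of 21 positions, and the changes from miR-192-5p to miR-215-5p, counted from the 5′ end, are C1A, A12U and C20A. Signal of either on the probes of the other was not tested. No other miRNA among the 1608 had the seed of miR-194-5p or miR-802-5p.

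miR-192-5p lies at chr19:6264857-6264877 on the plus strand. Its hairpin begins 115 bases after the end of the Mir194-2 hairpin, in the interval between the genes Atg2a and Ehd1. A further copy of miR-194-5p, with the same mature sequence, comes from Mir194-1 on chromosome 1. That hairpin ends 195 bases before Mir215 begins, and both lie within the span of the gene Iars2, which encodes a mitochondrial isoleucyl-tRNA synthetase. The array therefore sums miR-194-5p over both loci, whereas miR-192-5p and miR-215-5p each belong to a single locus. The chromosome 19 hairpins are printed because, of their arms, only the 5p sequences were detected, that of miR-194-5p on the LLC array only. The signal of miR-194-5p cannot be assigned to Mir194-2 or Mir194-1. Capitals mark both arms, the 5p arm first.
Mir192: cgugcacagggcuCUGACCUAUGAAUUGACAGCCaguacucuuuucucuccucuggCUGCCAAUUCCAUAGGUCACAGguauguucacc
Mir194-2: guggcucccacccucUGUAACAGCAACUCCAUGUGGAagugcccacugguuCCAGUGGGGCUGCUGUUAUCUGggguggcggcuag

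The MSC+LLC array was much dimmer than the LLC array, and this governs which members could be followed. Among probes that passed detection in both samples, the upper quartile of signal (75th percentile) was 11.52-fold lower in MSC+LLC. Detection required over 50% of a probe's spots to stand well above background, and 502 miRNAs passed for LLC and 258 for MSC+LLC. The dimmest detected probe had 20.9 intensity units in LLC exosomes and 18.8 in MSC+LLC exosomes. Negative control spots had 2.09 ± 3.82 units (SD, n = 986 spots) and 3.70 ± 3.43 units (SD, n = 965 spots). Agilent's spike-in RNAs for the hybridization step were almost equal between the arrays, with a log2 ratio of 0.038, and those for the labelling step were lower on the MSC+LLC array, with -1.32. Which spike-in belongs to which step was taken from Agilent's kit and is not stated in the files. Both arrays were on the same slide and in the same scan, so position on the slide and group cannot be told apart.

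Of the 4 liver miRNAs, 3 passed detection in LLC exosomes and 2 in MSC+LLC exosomes. miR-122-5p and miR-192-5p were detected on both, miR-194-5p on the LLC array only, and miR-802-5p on neither. Of miR-122-5p, the brighter probe had a mean of 932.7 ± 30.8 intensity units (SD, n = 14 spots) on the LLC array, with spots from 871 to 986. On the MSC+LLC array it had 155.2 ± 10.4 units (SD, n = 15 spots), with spots from 135.3 to 178. Before scaling the ranges of the spots did not overlap, and every spot on both arrays was well above background. The lack of overlap does not set the members apart. It was also seen for miR-148a-3p, no member, whose scaled log2 ratio was -0.01. The dimmer probe of miR-122-5p had 197.4 ± 12.6 units (SD, n = 14 spots) in LLC exosomes and 26.5 ± 4.57 units (SD, n = 15 spots) in MSC+LLC exosomes. There it stood close to the dimmest detected probe, and 14 of its 15 spots were well above background.

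miR-192-5p was the brightest member on both arrays. Its brighter probe had 4360 ± 288 units (SD, n = 15 spots) on the LLC array, with spots from 3831 to 4815. On the MSC+LLC array this probe had 306.3 ± 27.4 units (SD, n = 15 spots), with spots from 259 to 348. The dimmer probe had 1533 ± 88.0 units (SD, n = 14 spots) and 105.9 ± 5.24 units (SD, n = 15 spots). Spots again did not overlap between the arrays before scaling. The brighter probe exceeded the dimmer one 2.84-fold in LLC exosomes and 2.89-fold in MSC+LLC exosomes, so the probes of miR-192-5p kept their proportion. The probes of miR-122-5p kept it less closely, with 4.73-fold and 5.85-fold.

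miR-194-5p, the cluster partner of miR-192-5p, was the dimmest member detected on the LLC array. Its brighter probe had 103.4 ± 11.3 units there (SD, n = 15 spots), with spots from 83.8 to 124.5, and 15 of 15 spots were well above background. The other probe had 20.3 ± 3.20 units (SD, n = 15 spots), with 3 of 15 spots well above background, and was not called detected. On the MSC+LLC array the probes had 3.83 ± 4.18 units (SD, n = 15 spots) and -0.81 ± 2.20 units (SD, n = 14 spots), and 0 spots were well above background. The former mean lay within 1 SD of the negative control mean and the latter below that range. For miR-802-5p the probe means were 5.76 ± 4.93 and 1.97 ± 4.37 units (SD, n = 15 spots each) on the LLC array. On the MSC+LLC array they were 0.642 ± 4.20 (SD, n = 15 spots) and 0.550 ± 4.19 (SD, n = 14 spots). No spot of miR-802-5p was well above background on either array, so its level was below the detection limit and no ratio or bound can be given.

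**Figure D1:**
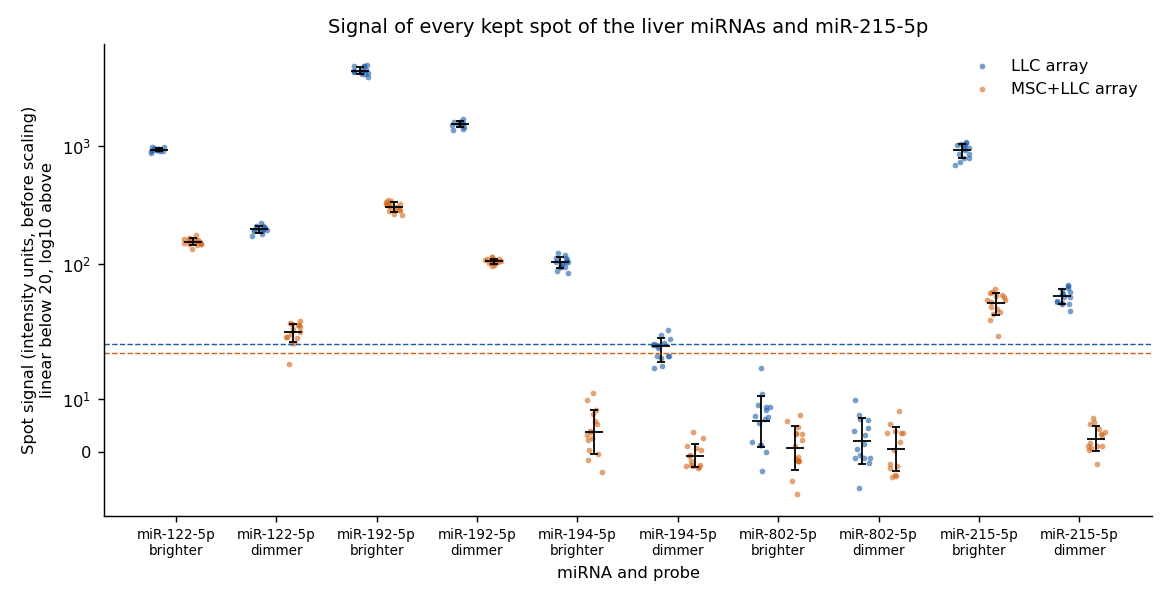
Signal of each kept spot in intensity units before scaling (linear below 20, log10 above), for both probes of each liver miRNA and of miR-215-5p. Points are spots of the LLC array (blue) and the MSC+LLC array (orange), black bars are the mean and SD over spots, and dashed lines mark the dimmest detected probe of each array. Without scaling for the dimmer MSC+LLC array, the spots of miR-122-5p and miR-192-5p are separate between the arrays. Those of the brighter miR-192-5p probe go from a mean of 4360 to 306.3 units, whereas both probes of miR-802-5p stay under the dashed lines.

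The opposite arms of the member hairpins were looked at next, because a precursor can release either arm. The arms miR-122-3p, miR-192-3p, miR-194-1-3p, miR-194-2-3p and miR-802-3p were represented by 10 probes. Of these, 0 were detected on either array. Their means ran from -3.29 to 6.58 units in LLC exosomes and from -2.30 to 2.08 units in MSC+LLC exosomes. In the 3 detected hairpin families the signal was thus found on 5p probes alone, at the depth these arrays allow.

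The rank of a member among all miRNAs of its array was taken from the summed signal per miRNA of the scanner software. Rank is a description of brightness, because probes differ in how well they bind, and only the change of a miRNA's own rank between the arrays compares like with like. miR-192-5p was at rank 54 of 596 miRNAs that the software called detected in LLC exosomes and at rank 56 of 311 in MSC+LLC exosomes. Its summed signal was 1569 units and 87.4 units. miR-122-5p was at rank 119 in LLC exosomes and at rank 82 in MSC+LLC exosomes, with summed signals of 300.9 and 38.5 units. miR-194-5p was at rank 304 on the LLC array, with 32.9 units. Because the lists differ in length, the place was also taken in other ways. As a percent of the list, miR-192-5p was at 9.06% and 18.0% from the top, and miR-122-5p at 19.97% and 26.4%. These percents rise as the list gets shorter, even at an almost unchanged rank as for miR-192-5p, so no direction is read from them. Among the 295 miRNAs that the software detected on both arrays, miR-192-5p was at ranks 54 and 56 and miR-122-5p at ranks 118 and 82. Among these 295, miR-122-5p thus stood higher on the MSC+LLC array and miR-192-5p stayed almost in place. Such a rank is relative to the other miRNAs and does not give the direction of a level. miR-451a, the miRNA of red cells, was at rank 1 on both arrays. As a share of the summed signal of all detected miRNAs, miR-192-5p made up 0.361% in LLC exosomes and 0.193% in MSC+LLC exosomes. The share of miR-122-5p was 0.0692% and 0.0850%. Together the members held 0.437% and 0.278%.

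**Figure D2:**
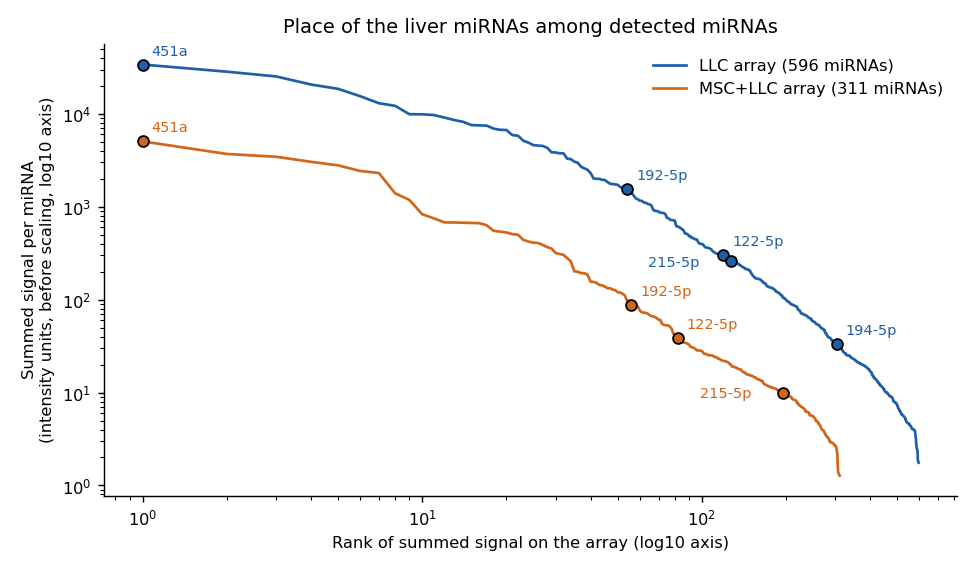
Summed signal per miRNA before scaling against its rank on the array, both on log10 axes, for the 596 miRNAs of the LLC array (blue) and the 311 miRNAs of the MSC+LLC array (orange) that the scanner software called detected. Marked points are liver miRNAs, miR-215-5p and miR-451a, and miR-122-5p goes from rank 119 to rank 82 while miR-192-5p stays at 54 and 56.

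The comparison of the arrays asked how the miRNAs of circulating exosomes differed when BMSCs had been injected with the cancer cells. Before any scaling, miR-122-5p was 6.69-fold dimmer on the MSC+LLC array and miR-192-5p 14.4-fold dimmer, as compared with 11.52-fold for the 75th percentile. Each array was then divided by its 75th percentile, which raised every log2 ratio by 3.53. Scaled, MSC+LLC over LLC on the log2 scale was 0.78 ± 0.20 (SD over spots) for miR-122-5p, 1.72-fold higher, with its probes at 0.63 and 0.94. For miR-192-5p it was -0.32 ± 0.14 (SD over spots), 1.25-fold lower, with its probes at -0.33 and -0.30. Thus 0 of these 2 members reached a 2-fold difference. Of the 240 miRNAs with a ratio, 27.1% reached 2-fold upward and 11.2% downward, which is 38.3% together. A ratio needs detection on the dimmer MSC+LLC array. A probe under 216.5 units on the LLC array could pass there only with a scaled log2 ratio above 0. These shares, and the quartiles and percents below, are thus tilted upward and miss falls of dim miRNAs. The median log2 ratio over the 240 was 0.15, with quartiles of -0.45 and 1.18, and thus both members fell between the quartiles. A lower ratio than that of miR-122-5p was seen in 68.3% of the 240, and a lower ratio than that of miR-192-5p in 30.8%.

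The sign of the miR-122-5p ratio depended on the scaling. Unscaled it was -2.74, and scaling to the hybridization spike-ins left it at -2.78. Scaling to the labelling spike-ins gave -1.42, to both kinds of spike-in -2.10, and to the upper quartile of every probe, detected or not, -0.43. miR-192-5p was below 0 under every scaling tried, down to -3.88 with the hybridization spike-ins. Whether more or less miR-122-5p circulated in the MSC+LLC group can therefore not be read from these arrays.

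What a common scale cannot change is the distance between members. The log2 ratio of miR-122-5p exceeded that of miR-192-5p by 1.102, a 2.15-fold difference, with a spot-to-spot SD of 0.24. Over the 4 combinations of their probes the distance ran from 0.94 to 1.27. Of the 16 other ways of processing, 6 add a constant to every ratio and cannot change the distance. Over the other 10 it ran from 0.83 with quantile normalization to 1.504 with normexp background correction. Not all of these 10 varied it. Calling detection by any spot well above background, or by the flag of the scanner software, also left it at 1.102. The summed signal and the authors' values, which differ by a constant per array, both gave 1.201. The distance was thus larger than the spread of the spots. Since there was 1 array per group, how far this distance varies between mice is unknown.

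**Figure D3:**
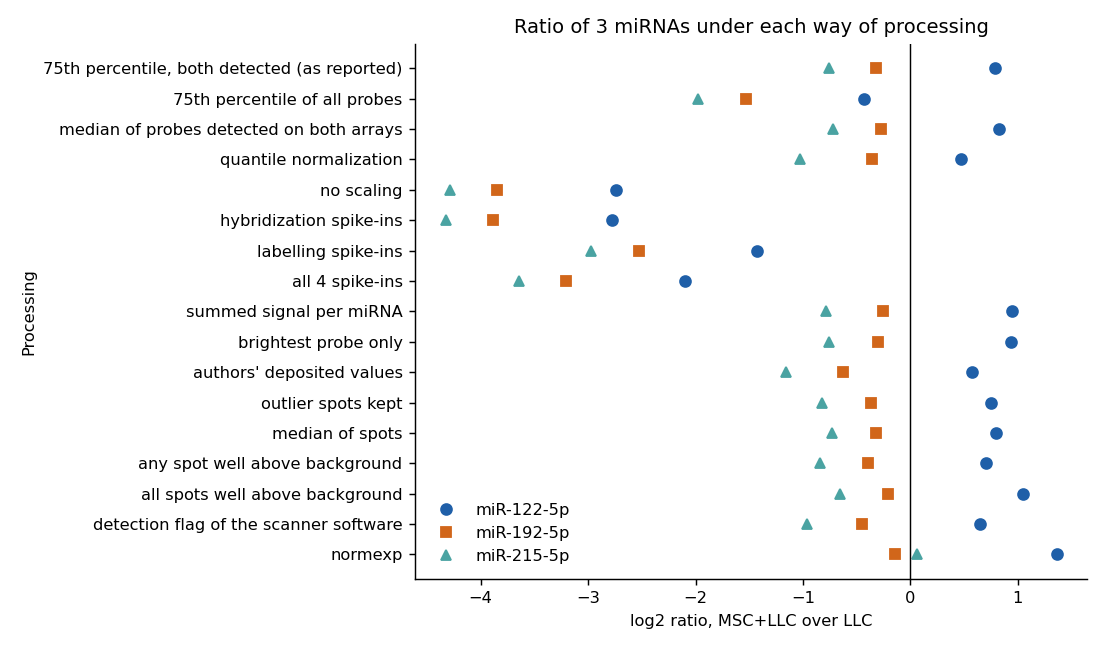
log2 ratio of MSC+LLC over LLC for miR-122-5p (circles), miR-192-5p (squares) and miR-215-5p (triangles) under the reported processing and 16 alternatives. The points shift together under the 6 settings that add a constant, miR-122-5p crosses 0, and it stays to the right of miR-192-5p in each row, by 0.83 to 1.504.

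miR-194-5p could not be followed downward. At the ratio of miR-192-5p its brighter probe would have had 7.20 units on the MSC+LLC array, and at the ratio of miR-122-5p 15.5 units, both under the 18.8 units of the dimmest detected probe. After scaling it therefore had no bound. Unscaled it was at least 5.50-fold lower against that limit. The bound was at least 1.11-fold lower when every probe entered the percentile, at least 2.21-fold lower on the labelling spike-ins, and at least 3.53-fold lower on both kinds of spike-in. A probe needed 216.5 units on the LLC array to stay detectable at an unchanged scaled level, and 577 of the 950 probes detected there had less.

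The log2 values deposited by the authors equal the log2 of the summed signal minus a constant, 7.02 in LLC and 3.48 in MSC+LLC, and they treat the undetected members in another way. In these values miR-122-5p was at 1.21 and 1.79, a difference of 0.57, and miR-192-5p was at 3.60 and 2.97, a difference of -0.63. miR-194-5p was at -1.98 in LLC exosomes and at -6.80 in MSC+LLC exosomes. The latter is the value of every miRNA that was not detected there, so that its difference of -4.82 follows from a fill-in value. miR-802-5p was at the fill-in values of both arrays, -10.34 and -6.80, and its difference of 3.54 comes from the constants alone. The same difference of 3.54 stood for the 5 opposite arms and for miR-215-3p.

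miR-215-5p, which shares the seed of miR-192-5p and is best known from intestine, was measured on both arrays with 1 probe. This probe had 918.9 ± 128 units (SD, n = 15 spots) in LLC exosomes and 47.1 ± 10.3 units (SD, n = 15 spots) in MSC+LLC exosomes. Its dimmer probe had 53.7 ± 7.71 units (SD, n = 15 spots) and then 2.51 ± 2.46 units (SD, n = 14 spots), the latter with 0 spots well above background. The scaled log2 ratio of miR-215-5p was -0.76, with a spot-to-spot SD of 0.37. It lay 0.44 below miR-192-5p, a distance with a spot-to-spot SD of 0.40, and 1.54 below miR-122-5p, with an SD of 0.43. miR-215-5p was thus closer to miR-192-5p, from which it was separated by about the spread of the spots, than to miR-122-5p. With normexp its ratio was 0.058, above that of miR-192-5p at -0.14.

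Other miRNAs known in hepatocytes, which many tissues also express, did not share a single ratio. All 6 on the list were detected on the LLC array and 4 were measured on both arrays. miR-378a-3p, encoded in the gene of the metabolic coactivator PGC-1β, was 3.35-fold higher (log2 ratio 1.74, spot-to-spot SD 0.16), but unscaled it was at -1.78 and with the labelling spike-ins at -0.47. Its probes had 119.7 and 193.2 units on the LLC array, under the 216.5 needed to stay detectable at an unchanged scaled level. It could thus be measured only at a scaled log2 ratio above 0. miR-34a-5p, a target of p53, was at 0.20 and miR-148a-3p at -0.01, both within their spot-to-spot SD of 0.28 and 0.26. miR-101a-3p was 2.86-fold lower (log2 ratio -1.51, SD 0.31), measured with 1 probe. On the MSC+LLC array this probe had 20.37 units, close to the 18.8 of the dimmest detected probe. Only 8 of its 14 spots there were well above background, and the other probe of miR-101a-3p was not called detected on that array. The ratio of miR-101a-3p thus rests on a signal near the detection limit. miR-33-5p, from an intron of the cholesterol regulator Srebf2, had 69.5 units and miR-101b-3p 100.1 units on the brighter probe of the LLC array. Neither was detected on the MSC+LLC array or had a bound in the reported scaling. On the labelling spike-ins they were at least 1.49-fold and 2.14-fold lower. The median of the 4 measured miRNAs was 0.10, beside 0.15 over all 240. This median leaves out miR-33-5p and miR-101b-3p, which were too dim on the LLC array to be followed at an unchanged scaled level. miR-192-5p lay 0.31 below miR-148a-3p, with an SD of 0.30, and miR-122-5p 0.79 above it, with an SD of 0.33.

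Blood cells and muscle also shed miRNAs into serum, and their levels are given beside those of the liver miRNAs because serum can carry miRNA from lysed red cells. The red cell miRNAs moved apart, with 4 of 4 measured, 2 past 2-fold upward and 2 past 2-fold downward, beside 27.1% and 11.2% of all 240. The upward calls depended on the scaling, since miR-451a and miR-486a-5p were at -2.47 and -1.87 unscaled and all 4 were below 0 with each kind of spike-in. miR-451a was at 1.06 and miR-486a-5p at 1.66, whereas miR-144-3p and miR-144-5p were both at -2.33. The downward calls are thus both arms of the same hairpin. miR-144-5p was measured with 1 probe, which had 23.3 units on the MSC+LLC array, close to the 18.8 of the dimmest detected probe. miR-122-5p lay 0.27 below miR-451a, about the spot-to-spot SD of 0.25, and 3.11 above miR-144-3p. miR-192-5p lay 1.38 below miR-451a and 2.01 above miR-144-3p. Of the skeletal muscle miRNAs, 3 of 4 were at least 2-fold higher, beside 27.1% of all 240, and miR-1a-3p was at 0.15. The 3 were miR-133a-3p at 1.28, miR-133b-3p at 1.17 and miR-206-3p at 1.07, the last with 1 probe. The measured probe of miR-206-3p had 201.8 units on the LLC array, under the 216.5 needed at an unchanged scaled level. It could thus be measured only at a scaled log2 ratio above 0. Signal of miR-133a-3p and miR-133b-3p on each other's probes was not tested, so they may not be separate calls. Unscaled all 4 muscle miRNAs were below 0, from -3.37 to -2.25, and with the labelling spike-ins from -2.06 to -0.93. Both miR-122-5p and miR-192-5p lay below miR-133a-3p, a muscle miRNA at 1.28, by 0.50 and 1.60. These differences show unequal change within the same pair of arrays, and the part of red cell or muscle RNA in the values of the liver miRNAs was not tested.

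Serum miRNAs used as references gave no common level to set the members against. Of 6, 4 were measured on both arrays. Their log2 ratios ran from -0.39 for miR-425-5p to 3.00 for miR-484, and unscaled from -3.92 to -0.52. The top of this range rests on 1 dim probe of miR-484. It had 70.2 units in LLC exosomes and 48.9 units in MSC+LLC exosomes, and its spots overlapped before scaling. With less than 216.5 units in LLC exosomes, this probe could be measured only at a scaled log2 ratio above 0. The ratio of miR-320-3p, 0.98, also rests on 1 probe. miR-192-5p lay 0.08 above miR-425-5p, with an SD of 0.27, and miR-122-5p lay 0.18 above miR-423-5p (0.60), with an SD of 0.27. Relative to miR-425-5p, miR-122-5p was 2.26-fold higher. Relative to miR-423-5p, miR-192-5p was 1.89-fold lower. Both members lay below miR-484, and neither lay below miR-425-5p, so their place relative to a reference differed with the reference taken.

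**Figure D4:**
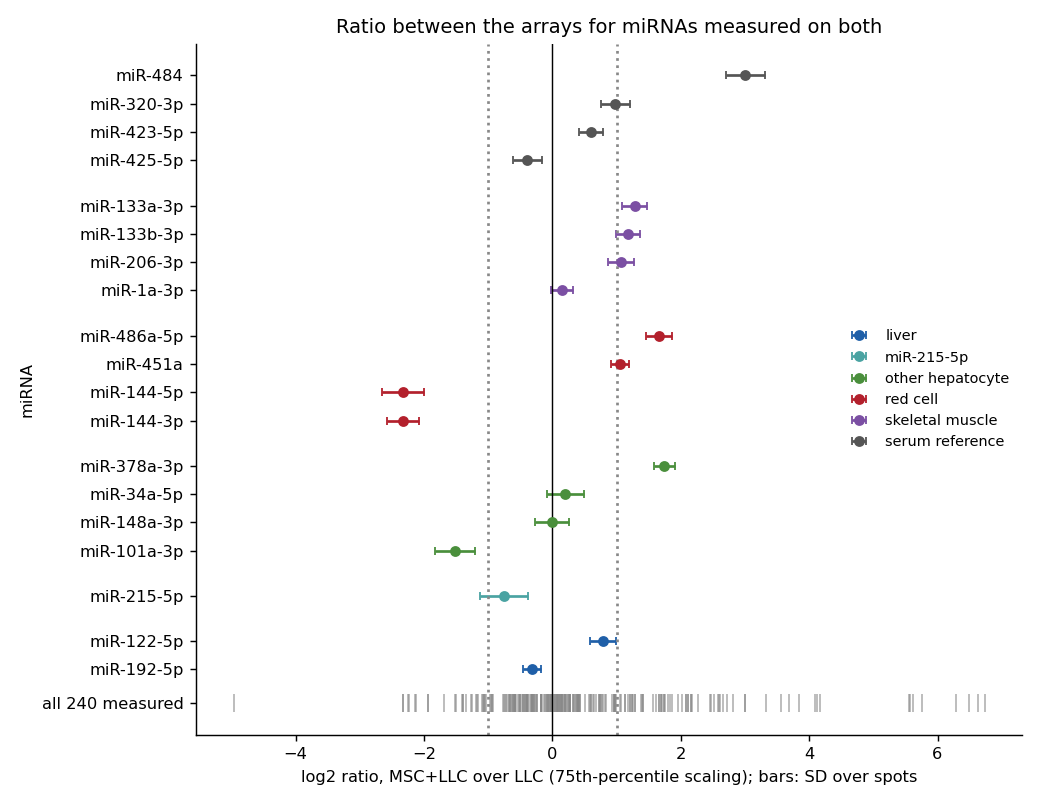
Scaled log2 ratio of MSC+LLC over LLC for miRNAs measured on both arrays, coloured by list. Shown are the members, miR-215-5p and the hepatocyte, red cell, muscle and serum reference lists, without the leukocyte and platelet list. Bars are the SD over spots, and grey ticks are all 240 measured miRNAs. Dotted lines mark 2-fold in the reported scaling, under which miR-192-5p at -0.32 and miR-122-5p at 0.78 lie between them while the red cell miRNAs lie on both sides, at -2.33 and up to 1.66.

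The miRNAs whose ratio was nearest to that of each member were sought among the 145 others measured with at least 2 probes. Nearest to miR-122-5p were miR-1249-3p at 0.77, miR-5126 at 0.76 and miR-7036a-5p at 0.75. Nearest to miR-192-5p were miR-6368 at -0.32, miR-185-5p at -0.31 and miR-128-3p at -0.33. All 6 lay within 0.037 of the member, which is less than the spot-to-spot SD of either member. Likeness here means a similar ratio over 2 arrays and nothing more.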

How the data were processed

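Serum exosomal RNA (100 ng per sample) of 1 LLC and 1 MSC+LLC sample, grouped by title, was labelled with Cy3 and hybridised to Agilent mouse miRNA arrays. Per the file headers, the authors processed the array scans with Feature Extraction 11.5.1.1 (10.7 in the submitters' processing notes). They deposited spot signal as background-subtracted, spatially detrended intensity, not scaled between arrays. The deposited series table holds log2 values made by the authors with GeneSpring GX, settings not stated.

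Outlier spots (3.04% and 2.95%) were left out, no spot was saturated, and spots were averaged per probe. Scaling used, per array, the upper quartile (75th percentile) over probes that passed detection in both samples. Log2 ratios were averaged over the probes of a miRNA detected on both arrays. The SD of a ratio combines the coefficients of variation over spots on both arrays. A bound sets the LLC signal against the dimmest detected probe of the MSC+LLC array.

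With 1 array per group there was no test and no p-value, and the number of arrays limits the precision. Named miRNAs were the members, the other arms of their hairpins, miR-215, fixed lists for hepatocytes, red cells, muscle and serum references, and the 3 miRNAs nearest in ratio to each measured member. A leukocyte and platelet list gave 4 of its 6 names on the array, with miR-223-3p at 0.14 and miR-146a-5p at 0.13 measured on both. Its other 2 names, of miR-142, are miR-142a in the array's naming, and these miRNAs, added after their values were seen, were at -2.25 (miR-142a-3p) and -2.12 (miR-142a-5p) with 1 probe each. Members and lists were chosen with earlier results of these data known. Sequences and positions are from RefSeq tables of GRCm38.p6, whereas the file headers name mm9 for the array grid, and no coordinate was taken from the files. The functions were tested on simulated data. Normexp was run in limma 3.58.1 (R 4.3.3), and all else in Python 3.11.15 with pandas 2.3.3, matplotlib 3.10.9, numpy 2.4.6 and scipy 1.17.1.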

Additional observations from a re-analysis of the deposited data

How the results depend on the processing

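No paired analysis was possible because the groups hold 1 array apiece. A log2 ratio is called moved here beyond its own SD over spots, and a number of miRNAs beyond a 1.5-fold change. Of 16 alternatives, 7 kept the ratio of miR-122-5p within its SD, 4 moved it and 5 turned its sign. For miR-192-5p 9 kept it, 7 moved it and 0 turned it. The scalings gave, for miR-122-5p and miR-192-5p, -0.43 and -1.53 (75th percentile of all probes), -1.42 and -2.53 (labelling spike-ins), -2.10 and -3.20 (all 4 spike-ins), -2.78 and -3.88 (hybridization spike-ins) and -2.74 and -3.84 (unscaled). By construction, each of these settings adds a single constant to every ratio. The authors' values gave 0.57 and -0.63, and normexp (offset 50, on the median pixel signal, as the files hold no mean signal) gave 1.36 and -0.14. Quantile normalization gave 0.47 for miR-122-5p, and requiring all spots well above background gave 1.05. The distance between these members was 0.83 with quantile normalization and 1.504 with normexp. miR-215-5p turned to 0.058 with normexp. The cause of the changes with quantile normalization and normexp was not tested. The members detected were 3 and 2 under the 4 other detection settings run.

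Of the 240 miRNAs with a ratio, 65 reached 2-fold upward and 27 downward. The counts were 27 and 127 when all probes entered the percentile, 15 and 180 with the labelling spike-ins, 11 and 204 with all 4 spike-ins, 8 and 217 both on the hybridization spike-ins and unscaled, 111 and 10 with normexp, and 35 and 7 at 4-fold. The lower count was 41 with quantile normalization, 41 with the software's own detection flag, 58 in the authors' values, 16 when all spots had to be well above background and 47 at 1.5-fold. Signal over background limits what can be seen to fall, and the downward counts leave out miRNAs that fell under the limit of the MSC+LLC array. miR-194-5p was detected on the LLC array and was under the limit of the MSC+LLC array. miR-802-5p was under the limit of both arrays, so a fall could not have been seen.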
